A study of Mus musculus with 10 samples.

Results

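Transcription factors that keep T cells naive or at rest were measured on 10 microarrays of mouse CD4+ T cells. The set was defined by name as Tcf7, Lef1, Bach2, Satb1, Foxo1, Foxp1, Klf2, Id2 and Id3. Of these 9 genes 8 were measured, among 18193 genes with a probe set of their own symbol. The 8 had 27 probe sets, and all 8 passed the filter on low intensity that left 11323 genes. Tcf7 was not analysed here. Spleen cells were sorted from DEREG mice, in which the Foxp3 promoter drives GFP, or from DEREG/Scurfy mice, which carry the scurfy mutation of Foxp3. All cells were stimulated through CD3 and CD28 and infected with a retrovirus carrying an NGFR marker, and NGFR+ cells were sorted for RNA. The 5 groups, each with 2 arrays, were scurfy Foxp3 (GFP+ start, DEREG/Scurfy, Foxp3 virus), scurfy mock (the same start, empty virus), Tconv Foxp3 (GFP- conventional cells of DEREG mice, Foxp3 virus), Treg mock (GFP+ regulatory cells of DEREG mice, empty virus) and Tconv mock (GFP- cells, empty virus). The strain field reads DEREG on Balb/c for every array, so the scurfy origin comes from the abbreviation D_S in 4 descriptions and is a reading of the labels. Age, sex and the number of animals were not given in the sources used here, and p-values therefore measure only the spread between these arrays, which may be technical.

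Naive T cells are held at rest by an active programme. FOXO1, a forkhead factor that AKT signalling drives out of the nucleus, switches on genes for survival and lymph node homing, among them KLF2, which in turn sustains the exit receptor S1PR1. FOXP1 is a forkhead factor that restrains activation in mouse naive T cells. LEF1 and TCF-1 are HMG-box factors of the naive state, and BACH2 represses effector genes such as Prdm1. SATB1 organises T cell chromatin and is known as a gene that Foxp3 represses in regulatory T cells. ID2 and ID3 bind E proteins and keep them from DNA, with ID2 known mostly from effector cells and ID3 from naive and regulatory cells.

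The promoters of Id2 and Bach2 are shown because these genes took opposite levels across the groups described below. Each covers 250 bases before to 50 bases after the RefSeq start in GRCm38.p6, 5′ to 3′ on the gene's strand. Capitals mark CAGNTG or its reverse complement CANCTG, a sequence E proteins bind, and CTTTGA or TCAAAG, the core that TCF/LEF factors bind.
Id2, chr12:25096043-25096342, minus strand: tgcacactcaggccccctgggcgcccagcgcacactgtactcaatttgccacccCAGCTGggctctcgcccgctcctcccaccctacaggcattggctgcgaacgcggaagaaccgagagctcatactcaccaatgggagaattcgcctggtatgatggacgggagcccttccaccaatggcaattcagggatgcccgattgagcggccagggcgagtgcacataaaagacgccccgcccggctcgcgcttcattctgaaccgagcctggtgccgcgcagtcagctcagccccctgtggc
Bach2, chr4:32417185-32417484, plus strand: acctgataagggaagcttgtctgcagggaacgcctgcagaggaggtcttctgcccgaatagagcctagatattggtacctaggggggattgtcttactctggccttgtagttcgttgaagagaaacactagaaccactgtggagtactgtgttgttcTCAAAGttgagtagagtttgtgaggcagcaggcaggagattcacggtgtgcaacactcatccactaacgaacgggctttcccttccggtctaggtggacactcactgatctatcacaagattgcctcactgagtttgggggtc

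The Id2 window held 1 E protein match and no TCF/LEF match, and the Bach2 window held 1 TCF/LEF match and no E protein match. Over 32851 RefSeq promoters of the same length, 51.4% held the E protein letters and 16% the TCF/LEF letters on either strand. The KLF box CACCC (reverse GGGTG) was found 2 times in the Id2 window and in 57.5% of promoters. Neither window held the forkhead letters GTAAACA (reverse TGTTTAC, 3.65% of promoters) or the BACH letters TGANTCA (7.81%). Matches of different motifs did not overlap in these windows. All 3 annotated Foxp1 starts had 1 E protein match each, and 1 of them also had a TCF/LEF match. A match describes letters, not binding.

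Median intensity per array ran from 18.8 to 36.3. The 8 CD4 T cell markers were above the array median on every array, with no value under 1041. The Foxp3 probe set read 948 and 691 in scurfy Foxp3 cells, 1188 and 1114 in scurfy mock cells, 18.0 and 18.9 in Tconv Foxp3, 2130 and 3128 in Treg mock, and 53.9 and 35.9 in Tconv mock. It was thus no higher in either group labelled Foxp3 than in its mock group, so "Foxp3" in a group name stands for the label. Whether its probes lie within the Foxp3 sequence of the virus was not analysed here, and probes outside it would not check the virus label. Scurfy Foxp3 array 1 and scurfy mock array 2 correlated better with each other (0.974 across genes) than with their own replicates (0.953 and 0.921). Summed intensity of 8 B cell markers was 1318 and 4687 in scurfy Foxp3 cells, 87.4 and 436 in scurfy mock cells, 610 and 640 in Tconv Foxp3, 252 and 1222 in Treg mock, and 322 and 124 in Tconv mock. Myeloid markers summed to at most 572, CD8 markers to at most 109 and NK markers to at most 204 on any array. Differences below are log2 differences of group means of log2(intensity + 16) with the standard error (SE) of a limma fit over all 10 arrays, n = 2 arrays per group, and calls were made where the p adjusted over 11323 genes lay under 0.05. Over all kept genes the median difference from Tconv mock was 0.22 for scurfy mock, 0.26 for Tconv Foxp3 and 0.19 for Treg mock, and member values are to be read against it.

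**Figure D1:**
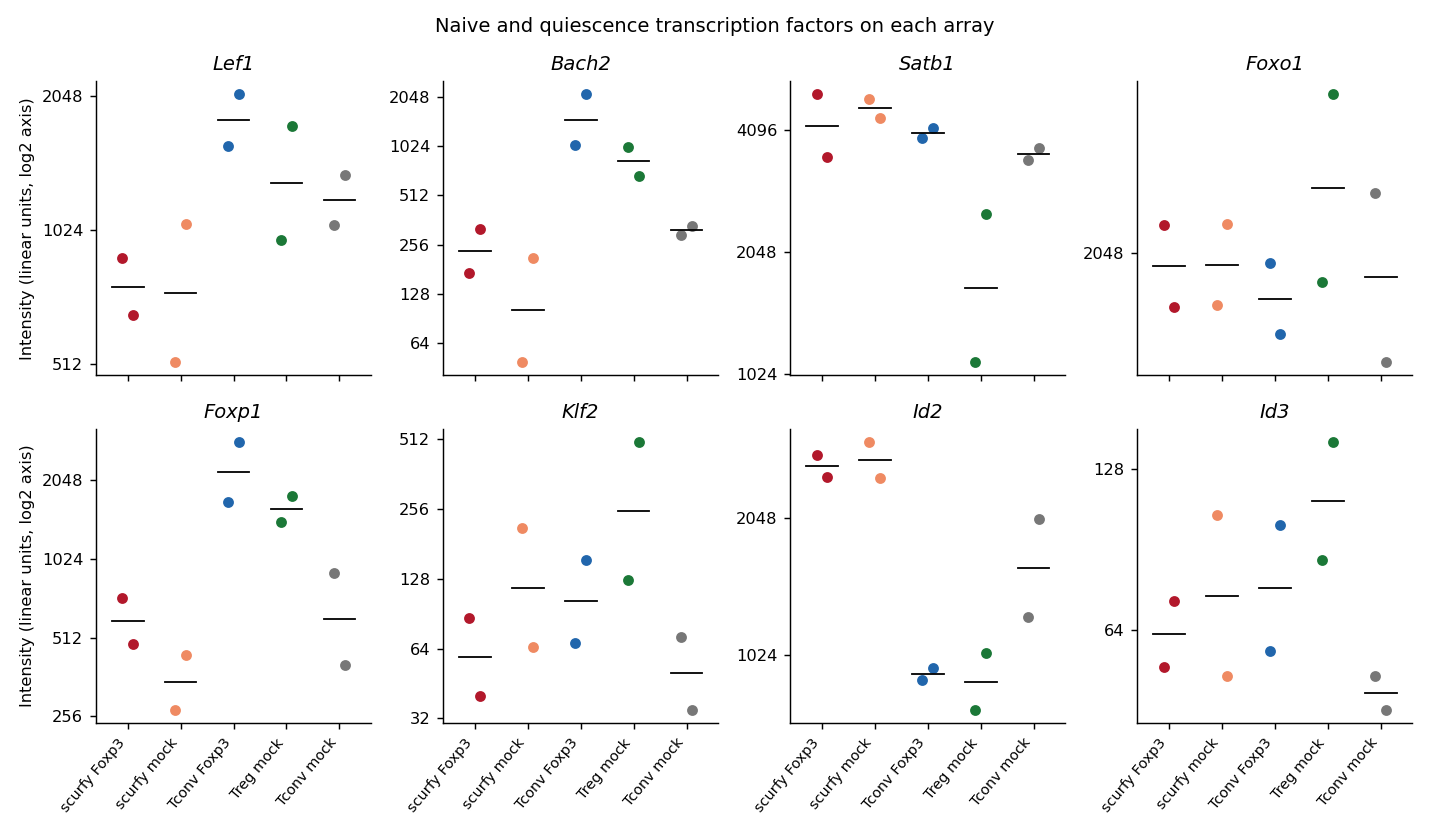
Intensity of the brightest probe set of each member (vertical axis, linear intensity units on a log2 scale) on the 2 arrays of each group (points), with the geometric mean as a bar. Id2 sits at 2510.2 or above on all 4 scurfy arrays and at or below 1035 on the Tconv Foxp3 and Treg mock arrays, while Bach2 and Foxp1 run the other way.

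Id2 was the only member called in any of the 10 comparisons. It was higher in scurfy Foxp3 than in Tconv Foxp3, the comparison of starting cells under the same virus label. The brightest probe set read 2814 and 2527 in scurfy Foxp3, against 905 and 961 in Tconv Foxp3. These arrays did not overlap, which also held for 48.4% of all genes in this comparison. The difference was 1.50 (SE 0.31, 2.83-fold, adjusted p = 0.0425). That 1 of 8 members was called compares with 2.24% of all genes in this comparison. B cell markers were also higher on the scurfy Foxp3 arrays (1318 and 4687, against 610 and 640), and their part in the Id2 difference was not tested. In bulk RNA, fewer cells of a type and less RNA per cell cannot be told apart.

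The Id2 call was close to its threshold. Its adjusted p ran from 0.0107 to 0.29 over 22 alternative settings, 11 of which kept the call, with differences from 1.42 to 1.65. It was lost without either scurfy Foxp3 array (adjusted p = 0.0827 and 0.14), without either Tconv Foxp3 array (0.228 and 0.29) and without either Treg mock array (0.0527). Without both scurfy Foxp3 array 1 and scurfy mock array 2, the pair that correlated best with each other, it was 1.42 (adjusted p = 0.0798).

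Id2 levels fell into 3 steps by group. Scurfy mock read 3008 and 2510.2, close to scurfy Foxp3, and Tconv mock lay between at 1244 and 2042. Treg mock read 779 and 1035, which overlapped Tconv Foxp3. Against Treg mock, Id2 was higher by 1.60 in scurfy mock (SE 0.31, adjusted p = 0.102) and by 1.55 in scurfy Foxp3 (SE 0.31, adjusted p = 0.117), and neither was called. Treg mock differed from Tconv mock by -0.82 (SE 0.31, adjusted p = 0.248), and Tconv Foxp3 from Tconv mock by -0.76 (SE 0.31, adjusted p = 0.331), again with arrays that did not overlap. Such arrays were seen for 51.5% and 59.2% of all genes in these 2 comparisons. Scurfy Foxp3 and scurfy mock differed by -0.04, with a 95% interval from -0.74 to 0.65. Tconv Foxp3 and Treg mock differed by 0.05 (-0.64 to 0.75), a value that turned to -0.12 after quantile normalization.

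The second Id2 probe set, 1422537_a_at, separated the groups more widely. It read 1023 and 1079.9 in scurfy Foxp3 cells, 1237 and 1168 in scurfy mock cells, 283 and 361 in Tconv Foxp3, 230.1 and 216 in Treg mock, and 770.3 and 1048 in Tconv mock. Here Tconv mock lay near the scurfy arrays rather than midway. In a fit of all 26094 probe sets kept, this probe set was called at 2.35 for scurfy mock against Treg mock (SE 0.28, adjusted p = 0.0147), at 2.16 for scurfy Foxp3 against Treg mock (SE 0.28, adjusted p = 0.0263), at 1.67 for scurfy Foxp3 against Tconv Foxp3 (SE 0.28, adjusted p = 0.026) and at -1.94 for Treg mock against Tconv mock (SE 0.28, adjusted p = 0.014). Of all probe sets, 0.199%, 0.115%, 1.15% and 1.08% were called in these comparisons. The third, 1453596_at, was dim, at 145 and 188 in scurfy Foxp3, against 48.5 and 27.9 in Tconv Foxp3. All 3 probe sets gave the same sign in 9 of the 10 comparisons, the exception being Tconv Foxp3 against Treg mock. The 2 brighter ones disagreed on size between Treg mock and Tconv mock, at -0.82 and -1.94.

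Id3, the relative that shares the HLH fold, was dim on every array. Its single probe set read 54.6 and 72.6 in scurfy Foxp3 cells, 105 and 52.5 in scurfy mock cells, 58.5 and 101 in Tconv Foxp3, 86.4 and 143 in Treg mock, and 52.6 and 45.5 in Tconv mock. Treg mock arrays were above both Tconv mock arrays, and scurfy Foxp3 arrays were below both Treg mock arrays. Of all genes, 51.5% and 31.4% had arrays without overlap in these comparisons. The difference of Treg mock from Tconv mock was 0.98 (SE 0.38, adjusted p = 0.258) and was not called.

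**Figure D2:**
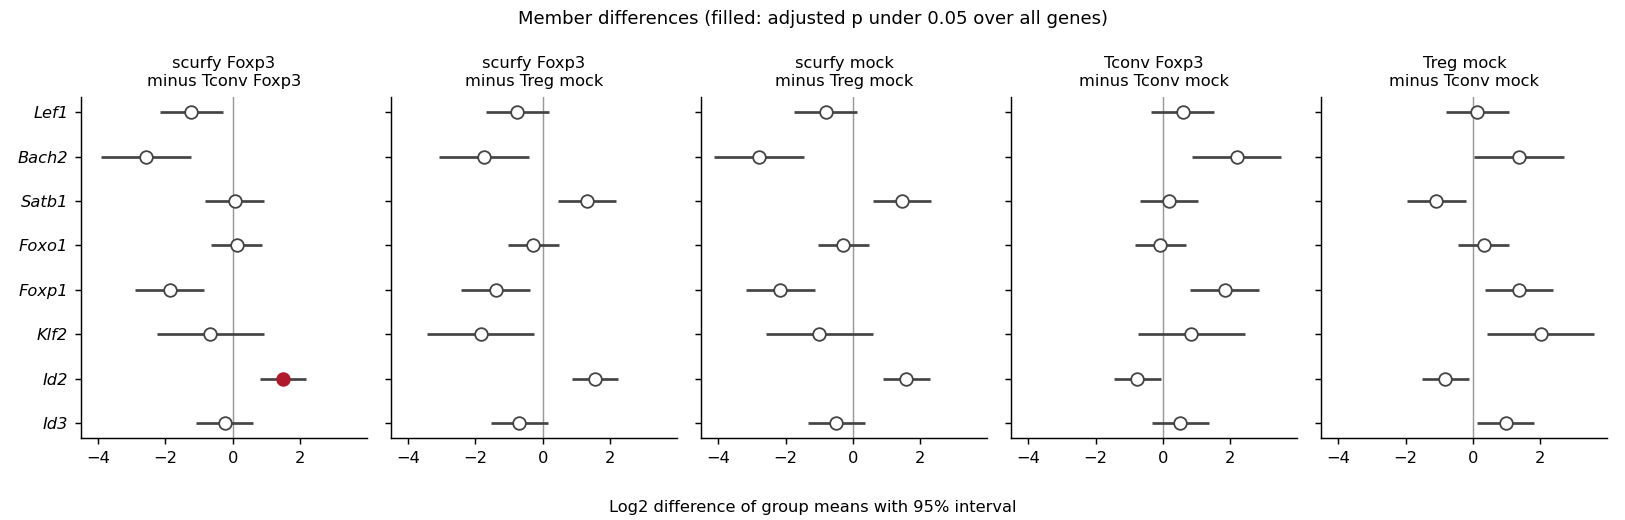
Log2 difference of group means (points) with its 95% interval (lines) for the 8 members in 5 comparisons, the first-named group minus the second. The filled point is Id2 in scurfy Foxp3 minus Tconv Foxp3 (1.50), the single call, and Bach2 and Foxp1 lie on the negative side of 0 in each of the 3 scurfy comparisons.

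Bach2, the repressor of effector genes, showed the widest range of the members. Its brightest probe set, 1445460_at, read 172 and 319.8 in scurfy Foxp3 cells, 49.1 and 212 in scurfy mock cells, 1039 and 2120.0 in Tconv Foxp3, 1018 and 674 in Treg mock, and 293 and 335 in Tconv mock. Tconv Foxp3 was highest and scurfy mock was lowest with its 2 arrays far apart. Treg mock followed Tconv Foxp3 without overlap, but the nearest arrays were close (1018 and 1039). Arrays of these 2 groups did not overlap for 49.8% of all genes, and the Bach2 difference was 0.83 (SE 0.59, adjusted p = 0.573). Tconv Foxp3 exceeded Tconv mock by 2.19 (SE 0.59, adjusted p = 0.198), and Treg mock exceeded it by 1.36 (SE 0.59, adjusted p = 0.317). Scurfy Foxp3 differed from Tconv Foxp3 by -2.58 (SE 0.59, adjusted p = 0.0652) and scurfy mock from Treg mock by -2.79 (SE 0.59, adjusted p = 0.13). None of these was called. Without scurfy mock array 2 the last difference was -3.70 and was called (adjusted p = 0.027), and over its 22 alternatives, 2 of which called it, the adjusted p ran from 0.027 to 0.409. The difference between scurfy Foxp3 and Tconv Foxp3 was called in 6 of 22 alternatives.

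The 3 Bach2 probe sets kept one sign in all 10 comparisons. The dimmest, 1437667_a_at, read 35.2 and 32.4 in scurfy Foxp3, against 184 and 363 in Tconv Foxp3. In the fit of single probe sets it was called there (-2.47, SE 0.42, adjusted p = 0.0285). It was also called for GFP+ against GFP- starting cells (-1.22, SE 0.27, adjusted p = 0.0468), where 2.98% of all probe sets were called, although arrays of the 2 kinds of start overlapped. The difference between the Foxp3-label effects in scurfy and in Tconv cells was -1.15 for the brightest probe set (SE 0.84, adjusted p = 0.696).

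Foxp1 followed Bach2 closely, with a Pearson correlation of 0.90 over the 10 arrays. Probe set 1435222_at read 725 and 483 in scurfy Foxp3 cells, 271 and 439.9 in scurfy mock cells, 1699 and 2870 in Tconv Foxp3, 1415 and 1790.5 in Treg mock, and 909 and 403 in Tconv mock. Tconv Foxp3 and Treg mock overlapped at the top, scurfy Foxp3 lay within the range of Tconv mock, and scurfy mock was lowest on array 1. The Tconv Foxp3 difference from Tconv mock was 1.84 (SE 0.45, adjusted p = 0.175), and that of Treg mock was 1.37 (SE 0.45, adjusted p = 0.19). Scurfy mock against Treg mock gave -2.15 (SE 0.45, adjusted p = 0.127) and scurfy Foxp3 against Tconv Foxp3 -1.87 (SE 0.45, adjusted p = 0.0767), neither called. All 8 Foxp1 probe sets were negative in scurfy Foxp3 against Tconv Foxp3, from -2.40 to -1.23, and all 8 were positive in Tconv Foxp3 against Tconv mock, from 0.55 to 2.05. In the first of these, 1421141_a_at (-2.40, SE 0.36, adjusted p = 0.0159) and 1421142_s_at (-2.03, SE 0.40, adjusted p = 0.0471) were called in the fit of single probe sets. Probe set 1421141_a_at read 82.1 and 41.5 in scurfy Foxp3, against 319 and 454 in Tconv Foxp3. Probe sets of a gene share its RNA and are not independent.

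**Figure D3:**
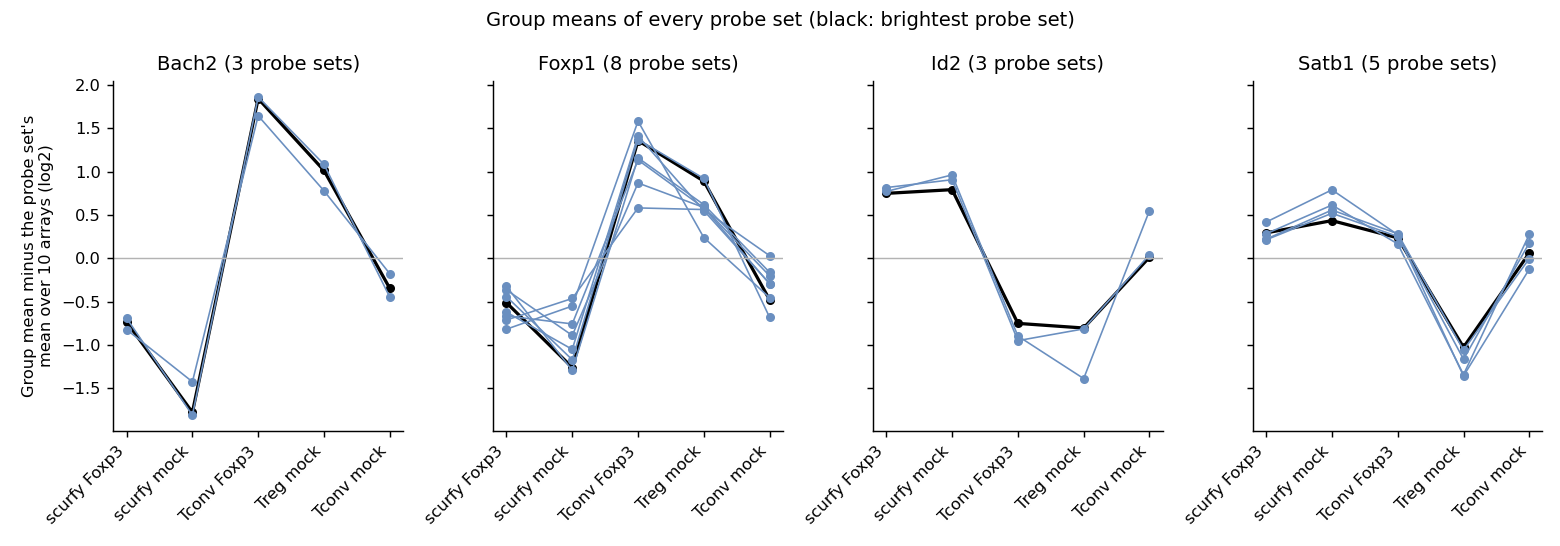
Group means of every probe set of Bach2, Foxp1, Id2 and Satb1, each minus that probe set's own mean over the 10 arrays (log2, vertical axis), by group (horizontal axis), with the brightest probe set in black. The 3 Bach2 lines and 8 Foxp1 lines peak in Tconv Foxp3, the Id2 lines are high in the scurfy groups, and the Satb1 lines dip in Treg mock.

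Lef1 had the same order at a smaller scale. Its brightest probe set read 886 and 660 in scurfy Foxp3 cells, 518 and 1056 in scurfy mock cells, 1582 and 2068 in Tconv Foxp3, 973 and 1759 in Treg mock, and 1050 and 1360 in Tconv mock. Scurfy Foxp3 arrays lay below all arrays of the 3 DEREG groups, while the other neighbours overlapped or nearly so. Scurfy Foxp3 arrays did not overlap Tconv Foxp3 for 48.4% of all genes, or Treg mock for 31.4%. The difference between scurfy Foxp3 and Tconv Foxp3 was -1.22 (SE 0.42, adjusted p = 0.181), and that between Treg mock and Tconv mock was 0.13 (SE 0.42, adjusted p = 0.915), a value that turned to -0.22 at a common 75th percentile. The second probe set, 1421299_a_at, was unequal within scurfy Foxp3, at 228 and 49.7, against 355 and 468 in Tconv Foxp3.

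**Figure D4:**
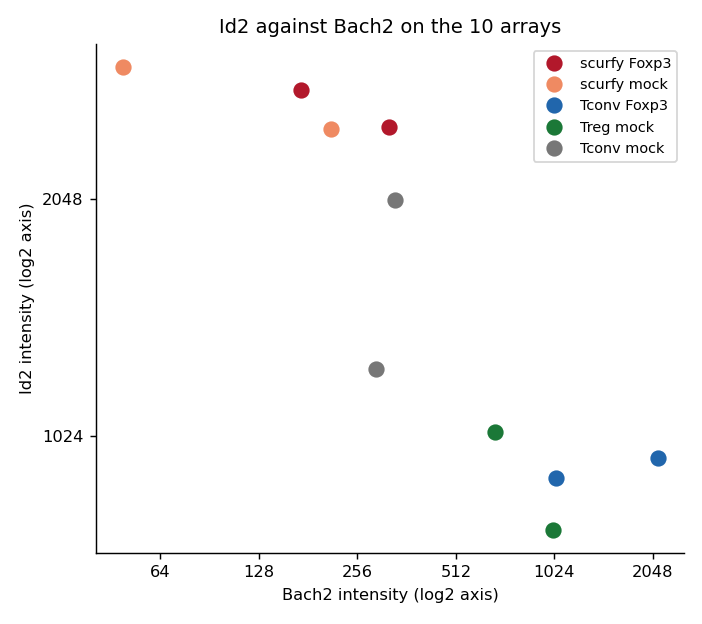
Id2 intensity (vertical) against Bach2 intensity (horizontal), both on log2 axes, with 1 point per array coloured by group. The 4 scurfy arrays lie at upper left and the Tconv Foxp3 and Treg mock arrays at lower right, with Tconv mock between them.

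Over the 10 arrays Id2 correlated with Bach2 at -0.87, with Foxp1 at -0.88 and with Lef1 at -0.69. Lef1 correlated with Bach2 at 0.80 and with Foxp1 at 0.78. Klf2 and Id3 formed a second pair at 0.90, and their correlations with Id2 were both -0.32. Arrays within a group share their starting cells and are not independent points.

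Satb1 was lowest in Treg mock. Probe set 1416008_at read 5013 and 3512 in scurfy Foxp3 cells, 4894 and 4379 in scurfy mock cells, 3912 and 4155 in Tconv Foxp3, 1098 and 2537 in Treg mock, and 3449 and 3692 in Tconv mock. Both Treg mock arrays lay below the other 8, and array 1 was the dimmer of them. Against each other group taken singly, Treg mock arrays did not overlap for 31.4% to 51.5% of all genes. The difference from Tconv mock was -1.09 (SE 0.38, adjusted p = 0.218), and all 5 probe sets were negative there, from -1.62 to -1.06. It was -1.44 and called at a common 75th percentile (adjusted p = 0.0389), in 1 of 22 alternatives, over which the adjusted p ran to 0.639. Relative to Treg mock, Satb1 was higher by 1.46 in scurfy mock (SE 0.38, adjusted p = 0.241), by 1.32 in scurfy Foxp3 (SE 0.38, adjusted p = 0.329) and by 1.26 in Tconv Foxp3 (SE 0.38, adjusted p = 0.205). These 3 comparisons share the Treg mock arrays. Between the groups labelled Foxp3 the difference was 0.06, with a 95% interval from -0.81 to 0.93.

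Foxo1 varied least. Probe set 1416983_s_at, whose suffix marks probes shared by several transcripts, read 2197 and 1784 in scurfy Foxp3 cells, 1793 and 2202 in scurfy mock cells, 1994 and 1669.7 in Tconv Foxp3, 1905 and 3052 in Treg mock, and 2383 and 1555 in Tconv mock. All groups overlapped. Differences in the 10 comparisons ran within 0.40 of 0, and the widest, Tconv Foxp3 minus Treg mock, was -0.40 with a 95% interval from -1.15 to 0.35. Treg mock array 2 had the highest reading on the 3 brighter probe sets, for instance 1227 against 574 on array 1 for 1416981_at. The fourth, 1456529_at, stayed at or below 78.5.

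Klf2, which FOXO1 switches on in resting T cells, was dim and uneven between replicates. It read 86.5 and 40.1 in scurfy Foxp3 cells, 212 and 64.7 in scurfy mock cells, 67.8 and 155 in Tconv Foxp3, 127 and 498 in Treg mock, and 71.9 and 34.9 in Tconv mock. Treg mock was above Tconv mock without overlap, by 2.02 (SE 0.70, 95% interval 0.43 to 3.61, adjusted p = 0.21), and was not called. Arrays of these 2 groups did not overlap for 51.5% of all genes. Treg mock array 2, the brightest for Klf2, Id3 and Foxo1, also had the highest median intensity of any array (36.3, against 24.9 on array 1). Its 75th percentile was likewise the highest (190.7, against 138.6 on array 1), and the main fit applied no scaling. Without this array the median difference of Treg mock from Tconv mock over all genes went from 0.19 to 0.02. Treg mock array 2 also had the larger B cell marker sum of its group (1222, against 252 on array 1), and that link was not tested.

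Counts of called members beside those of all genes were as follows. In Treg mock against Tconv mock 0 of 8 members were called by limma and 6 had an unadjusted p under 0.05. Of all 11323 genes, 1.09% were called and 1744 had such a p. In scurfy Foxp3 against Tconv Foxp3 1 member was called and 4 had such a p (2.24% of genes called, 1938 genes with such a p). In scurfy mock against Tconv mock 0 were called and 2 had such a p (0.574% of genes called, 1565 genes with such a p). In Tconv Foxp3 against Tconv mock these counts were 0 and 3 (0.106%, 1577 genes). Relative to Treg mock, 0 were called in scurfy mock (4 unadjusted, 0.256% of genes), in scurfy Foxp3 (5 unadjusted, 0.177%) and in Tconv Foxp3 (1 unadjusted, 0.671%). Genes with an unadjusted p under 0.05 numbered 899, 1005 and 1549 in these comparisons. For the Foxp3 label within scurfy cells 0 members had even an unadjusted p under 0.05 (0.0353% of genes called, 480 genes with such a p). The same held for the difference of the label's effects between scurfy and Tconv cells, where 0% of genes were called and 912 had an unadjusted p under 0.05. Comparing the 3 GFP+ groups with the 2 GFP- groups gave 0 calls and 4 unadjusted among members, with 4.65% of genes called and 2460 genes unadjusted. The members' median difference was 0.65 in Treg mock against Tconv mock, 0.56 in Tconv Foxp3 against Tconv mock and -0.73 in scurfy Foxp3 against Treg mock, beside 0.19, 0.26 and 0.01 for all genes.

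Genes downstream of FOXO1 and KLF2 were counted in a list of 12, of which 11 were tested. Between GFP+ and GFP- starts 4 were called higher and 0 lower, with a list median of 0.83 beside 0.08 for all genes, of which 4.65% were called (392 higher and 134 lower). Apart from Foxp3, whose promoter was the sorting reporter, these were Il7r, the interleukin 7 receptor (1.30, SE 0.28, adjusted p = 0.0351), S1pr1, the lymphoid exit receptor (2.55, SE 0.51, adjusted p = 0.0284), and the inhibitory receptor Ctla4 (1.41, SE 0.25, adjusted p = 0.0205). Il7r read 980 and 735 in Tconv Foxp3 and 2599 and 1177 in Tconv mock, against 2595 and 3008 in Treg mock. It read 2777 and 3108 in scurfy Foxp3 cells and 4671 and 2426 in scurfy mock cells. Tconv mock array 1 thus lay among the GFP+ arrays, and Treg mock exceeded Tconv mock by 0.67 (SE 0.43, adjusted p = 0.498). S1pr1 read 474 and 119.7 in scurfy Foxp3, while scurfy mock had 295 and 449 and Treg mock 446 and 2733, against 37.0 and 39.5 in Tconv Foxp3 and 94.8 and 124 in Tconv mock. In Treg mock against Tconv mock all 11 were positive (median 1.34, all genes 0.19) but only Foxp3 was called, with 1.09% of all genes called. In scurfy Foxp3 against Tconv Foxp3, Ctla4 (2.10, SE 0.39, adjusted p = 0.0359) and Foxp3 were called.

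**Figure D5:**
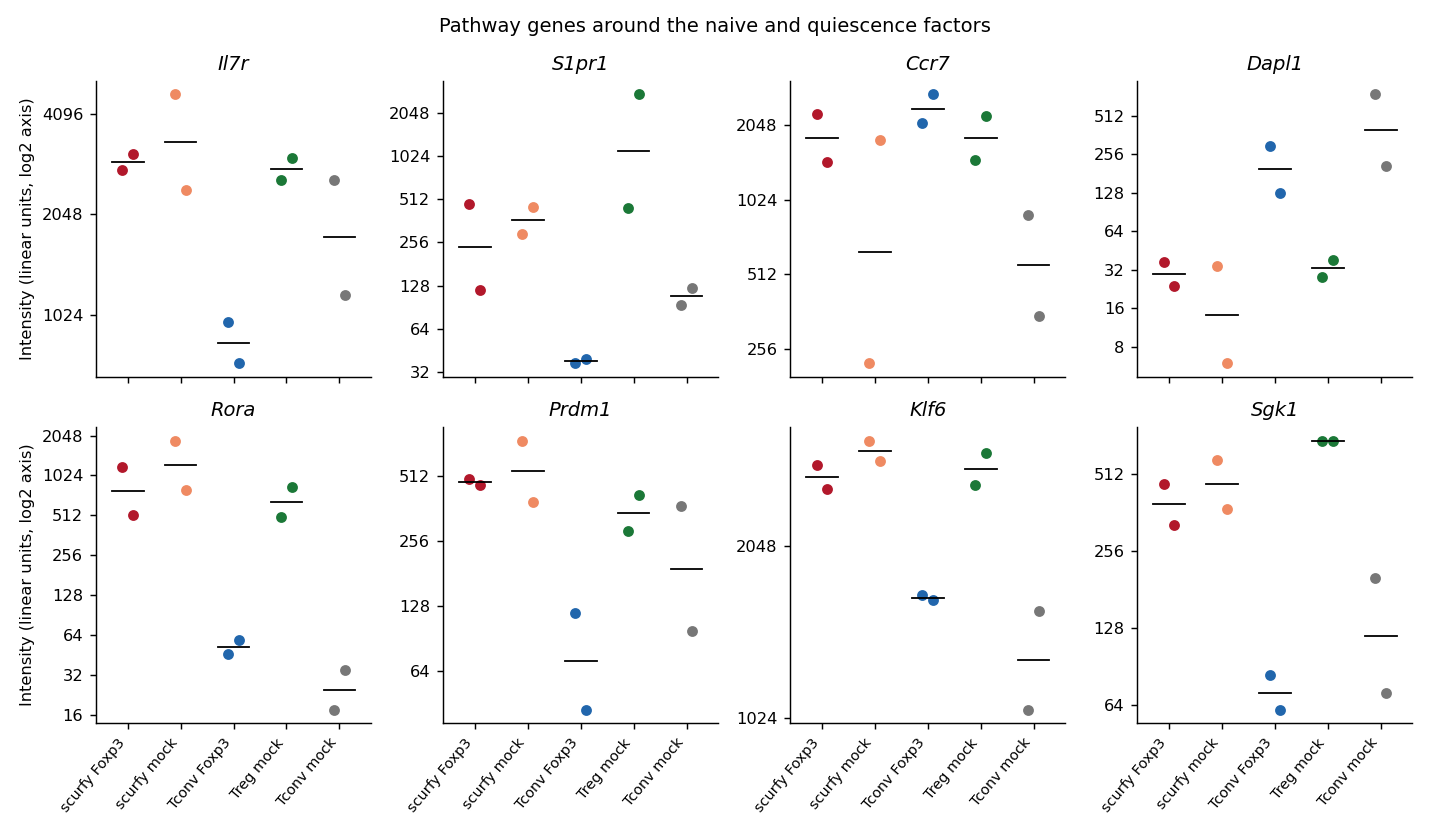
Intensity (vertical axis, linear units on a log2 scale) of 8 pathway genes on the 2 arrays of each group (points), with the geometric mean as a bar. Rora, Klf6 and Sgk1 are low in both GFP- groups, Tconv Foxp3 and Tconv mock, relative to the GFP+ groups. Il7r and S1pr1 are low in Tconv Foxp3 relative to the GFP+ groups, while their Tconv mock arrays reach the range of the GFP+ arrays. Dapl1 is low in all GFP+ groups.

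Naive T cell genes split by direction. Of 13 listed, 11 were tested, and between GFP+ and GFP- starts Il7r and S1pr1 were higher, while Dapl1 (-2.81, SE 0.40, adjusted p = 0.00837) and Il6ra, the interleukin 6 receptor (-1.62, SE 0.38, adjusted p = 0.0479), were lower (list median 0.31, all genes 0.08). Il6ra read 77.9 and 348 in Treg mock, which overlapped Tconv Foxp3 (223 and 255) and Tconv mock (492 and 219). It read 68.1 and 50.9 in scurfy Foxp3 cells and 37.8 and 62.0 in scurfy mock cells. Treg mock differed from Tconv mock in Il6ra by -0.90 (SE 0.59, adjusted p = 0.511). Dapl1 was also lower in scurfy mock than in Tconv mock (-3.64, SE 0.62, adjusted p = 0.0471), the 1 call of the list there. Ccr7, the lymph node homing receptor, read 2262 and 1454 in scurfy Foxp3 cells, 224 and 1787 in scurfy mock cells, 2078 and 2719 in Tconv Foxp3, 1484 and 2217 in Treg mock, and 890.1 and 349 in Tconv mock, and was called in no comparison.

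Effector transcription factors, the counterpart of the naive programme, had 15 of 16 members tested. Between GFP+ and GFP- starts 3 were higher and 0 lower, with 4.65% of all genes called (list median 0.40, all genes 0.08). Rora, a nuclear receptor, was higher by 4.03 (SE 0.33, adjusted p = 0.000487), Maf by 1.93 (SE 0.42, adjusted p = 0.0392) and Prdm1, which BACH2 represses, by 1.76 (SE 0.39, adjusted p = 0.0396). Maf was low in Tconv Foxp3 (1142 and 190) but not in Tconv mock (5217 and 3427), which overlapped Treg mock (5078 and 5137). It read 6116 and 4747 in scurfy Foxp3 cells and 6994 and 5045 in scurfy mock cells. Treg mock differed from Tconv mock in Maf by 0.27 (SE 0.66, adjusted p = 0.881). Prdm1 read 492 and 463 in scurfy Foxp3 cells, 744 and 388 in scurfy mock cells, 119 and 42.4 in Tconv Foxp3, 285 and 419 in Treg mock, and 369 and 97.9 in Tconv mock. In scurfy Foxp3 against Tconv Foxp3 the called genes were Rora (3.55, SE 0.51, adjusted p = 0.0133) and Maf (3.47, SE 0.66, adjusted p = 0.0363). Rora alone of the list was called in Treg mock against Tconv mock (4.00, SE 0.51), scurfy mock against Tconv mock (4.89, SE 0.51) and Tconv Foxp3 against Treg mock (-3.28, SE 0.51).

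Relatives of the members and E proteins had 16 of 18 genes tested. The KLF family genes Klf10 (1.11, SE 0.20, adjusted p = 0.0196), Klf6 (0.94, SE 0.18, adjusted p = 0.0224) and Klf4 (1.25, SE 0.24, adjusted p = 0.0229) were higher in GFP+ than in GFP- starts, and 0 were lower (list median 0.29, all genes 0.08). Klf4 was dim, and its Treg mock arrays (47.3 and 92.0) overlapped Tconv Foxp3 (57.4 and 34.7). It read 151 and 83.2 in scurfy Foxp3 cells, 178 and 182 in scurfy mock cells, and 28.9 and 34.0 in Tconv mock. Treg mock differed from Tconv mock in Klf4 by 0.80 (SE 0.37, adjusted p = 0.335). Klf10 was the 1 call in scurfy Foxp3 against Tconv Foxp3 (1.62, SE 0.31, adjusted p = 0.0363). None of the E protein genes Tcf3, Tcf4 and Tcf12 was called in any of the 10 comparisons.

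Other quiescence genes (14 of 15 tested) had 1 call, Vsir, the checkpoint receptor VISTA, higher in GFP+ starts (1.19, SE 0.27, adjusted p = 0.0439, list median 0.57, all genes 0.08). Vsir read 666 and 250 in scurfy mock cells, which overlapped Tconv Foxp3 (271 and 364). It read 373 and 497 in scurfy Foxp3 cells, 528 and 432 in Treg mock, and 101 and 109 in Tconv mock. Among PI3K and AKT pathway genes upstream of FOXO1 (12 of 13 tested), Sgk1, a kinase that phosphorylates FOXO factors, was the 1 called gene in each of 4 comparisons. It was higher in GFP+ than in GFP- starts (2.23, SE 0.28, adjusted p = 0.00479), in Treg mock than in Tconv mock (2.35, SE 0.44, adjusted p = 0.0424) and in scurfy Foxp3 than in Tconv Foxp3 (2.21, SE 0.44, adjusted p = 0.0405), and lower in Tconv Foxp3 than in Treg mock (-3.00, SE 0.44, adjusted p = 0.0225). Partners of TCF-1 and LEF1 and Wnt pathway genes (12 of 14 tested) had Jup, plakoglobin, called higher in scurfy Foxp3 than in Tconv Foxp3 (1.48, SE 0.28, adjusted p = 0.0367) and lower in Tconv Foxp3 than in Treg mock (-1.75, SE 0.28, adjusted p = 0.0337). Jup was dim, at no more than 65.7 on any array.

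The genes whose log2 levels were most like each member over the 10 arrays, by Pearson correlation among all kept genes, were Ifitm2 (0.98) and Tspo (0.97) for Id2, Ephx1 (0.97) and Mir1949 (0.96) for Bach2, Zfp281 and Hmgn1 (both 0.96) for Foxp1, and Zscan12 (0.94) and Frmd6 (0.93) for Lef1. Satb1 was most like Ganab (0.95) and Sema4b (0.93), Foxo1 like Fam193b (0.97) and Hapln4 (0.92), Klf2 like Plcl2 (0.97) and Ppm1b (0.96), and Id3 like Pdcd4 and Cacna2d4 (both 0.96). Ephx1 read 103 and 159 in scurfy Foxp3 cells, 18.6 and 60.3 in scurfy mock cells, 712 and 873 in Tconv Foxp3, 569.8 and 414 in Treg mock, and 165 and 99.9 in Tconv mock. Ifitm2 read 2867 and 2373 in scurfy Foxp3, against 632 and 597 in Tconv Foxp3. With 10 arrays and 11323 genes, high correlations of this kind are a ranking and carry no test.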

How the data were processed

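Values came from 10 Affymetrix Mouse Genome 430 2.0 arrays. Per the labels, the authors hybridised biotinylated cDNA and, per the submitters' processing notes, used Affymetrix Expression Console. The deposited intensity values are on a linear scale, and the sources used here do not name the summary method, version or scaling. Intensities were converted to log2 after adding 16, without further scaling. Of 45101 probe sets, 64 were controls and 34945 others had 1 symbol, 932 several and 9160 none. Each gene was represented by its brightest probe set by mean log2, and a gene was kept if it exceeded the median of 2 or more arrays. limma 3.58.1 in R 4.3.3 (lmFit, eBayes) was fitted over all arrays, with Benjamini-Hochberg adjustment over all kept genes within each of 10 comparisons. A second fit took each probe set alone. Named genes were the members, called genes of fixed lists (up to 4 a comparison), the 2 best correlated genes per member and Foxp3. Values of Ccr7, Prdm1, Maf, Il7r, Il6ra, Klf4, Vsir, Ephx1 and Ifitm2 by array were chosen after they were seen. Members and lists were chosen with earlier results of these data known. Some listed genes were not analysed here. The fit was tested on simulated data for Treg mock against Tconv mock. The simulated noise was normal and independent between genes and arrays, without array-wide shifts or B cell variation, and changes were placed in Treg mock alone. The fit recovered 4 of 67 changes of 1 log2 unit, 33 of 67 of 2 units and 57 of 66 of 3 units. Of its 97 calls 3 were false. Under these settings a real difference of 1 or 2 log2 units could stay uncalled. Recovery under the spread of the real arrays was not tested. Promoter sequences are from RefSeq (GRCm38.p6).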

Additional observations from a re-analysis of the deposited data

How the results depend on the processing

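Alternatives were 11 settings, each array left out in turn, and, chosen after seeing the data, leaving out both scurfy Foxp3 array 1 and scurfy mock array 2. Counts are of members called on their brightest probe set; dimmer probe sets called in the fit of single probe sets are given with Id2, Bach2 and Foxp1 above. Called members stayed at 0 throughout in scurfy mock against Tconv mock, Tconv Foxp3 against Tconv mock, scurfy Foxp3 against scurfy mock, Tconv Foxp3 against Treg mock and the difference of the Foxp3-label effects. In scurfy Foxp3 against Tconv Foxp3 the count of 1 (Id2) became 2 at a common 75th percentile (with Foxp1) and with a pseudocount of 64 (with Bach2), and 3 with the mean of probe sets, with trend and robust options and with the compared groups alone (Id2, Bach2 and Foxp1 each time). It became 0 with a pseudocount of 1, without a filter, with each probe set on its own (brightest ones only; 1 Id2, 1 Bach2 and 2 Foxp1 dimmer ones were called), with the replicate number as a block and without the 2 arrays together, and ran from 0 to 2 when an array was left out. Scurfy mock against Treg mock gave 1 in place of 0 with the mean of probe sets and with trend and robust options (Id2), 1 without the 2 arrays together (Bach2), and 0 to 1 leaving out an array. Scurfy Foxp3 against Treg mock gave 1 (Id2) with the mean of probe sets and with trend and robust options. Treg mock against Tconv mock gave 1 (Satb1) at a common 75th percentile. GFP+ against GFP- starts gave 1 (Bach2) without the 2 arrays together and 0 to 1 leaving out an array. The causes were not tested. Replicate numbers did not pair the samples: array 1 minus array 2 correlated between groups from -0.17 to 0.18, and the replicate block changed no other count of members.

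Of 80 member differences, 3 changed sign under quantile normalization and 6 at a common 75th percentile, none of them called and each smaller than its SE. Calls over all genes moved widely, from 10 (without Tconv Foxp3 array 2) to 435 (without the 2 arrays together) around 254 in scurfy Foxp3 against Tconv Foxp3, from 17 (without Tconv mock array 2) to 215 (without either scurfy mock array) around 123 in Treg mock against Tconv mock, and from 99 (without Tconv Foxp3 array 2) to 850 (without the 2 arrays together) around 526 for GFP+ against GFP- starts. With 2 arrays per group, precision is limited everywhere, and near background for Klf2 and Id3.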
